A study of Mus musculus with 6 samples.

Results

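The genes described here are 8 mouse genes of non-muscle and smooth-muscle myosin II, among 42450 genes in the deposited count table. They were chosen by name, with earlier results of these data known. They comprise the regulatory light chains Myl9, Myl12a and Myl12b, the essential light chain Myl6, the heavy chains Myh9, Myh10 and Myh14, and the light chain kinase Mylk. All 8 passed the filter on low counts. The samples were 3 WT and 3 Srrm2+/- cultures of male mouse embryonic stem cells (ESCs). WT was the parental line E14tg2a.4, and Srrm2+/- was the single gene-trap line CG0630, derived from it, in which a cassette inserted at exon 1 truncates 1 of the 2 alleles of Srrm2, a splicing factor of nuclear speckles. Both lines were kept on gelatine with LIF, the cytokine that holds mouse ESCs in the pluripotent state, and spent 24 or 72 h, per the labels, in serum-free ESGRO medium before harvest, whereas the study's methods give a growth time between these for total RNA, and which applied to each culture is not given. Per the study's methods, replicates were cells thawed from separate frozen batches, and the WT cells had been passaged further than the Srrm2+/- cells, so genotype, clone and passage cannot be told apart.

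Myosin II is a motor of 2 heavy chains, each carrying 1 essential and 1 regulatory light chain, which pulls on actin filaments. In non-muscle cells it drives cortical tension, cell spreading and cytokinesis, and it is switched on when kinases such as MLCK (Mylk) or the kinases ROCK1 and ROCK2 phosphorylate the regulatory light chain, and off by myosin phosphatase. Pluripotent ESCs are known for low contractility in compact colonies, and Myl9 is best known from smooth muscle, where serum response factor (SRF) acts through the CArG box, a motif of CC, then 6 bases each A or T, then GG.

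The 3 regulatory light chain genes encode closely related proteins, and their coding sequences show what the read assignment had to separate. All 3 coding sequences hold 519 bases, stop codon included. Myl12a and Myl12b shared 501 of them (96.5%), Myl9 and Myl12a 444 (85.5%), and Myl9 and Myl12b 448 (86.3%). The first 90 coding bases are printed because all 3 genes can be told apart there. They come from GENCODE M21 transcripts, and capitals mark the 14 positions at which the genes do not all hold the same base.
Myl9: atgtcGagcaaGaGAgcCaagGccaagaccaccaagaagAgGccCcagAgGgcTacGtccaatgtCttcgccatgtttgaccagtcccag
Myl12a: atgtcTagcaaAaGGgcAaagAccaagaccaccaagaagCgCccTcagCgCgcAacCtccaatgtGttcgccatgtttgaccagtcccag
Myl12b: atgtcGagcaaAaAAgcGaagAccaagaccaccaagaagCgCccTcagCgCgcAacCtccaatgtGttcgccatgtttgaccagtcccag
Myl9 lies on the plus strand at chr2:156775420-156781658 (GRCm38). Myl12b (chr17:70973133-70990890) and Myl12a (chr17:70993656-71002878) are neighbours on the minus strand, with 2765 bases between them. Over all annotated transcripts, 0.41% of the 31-base words of Myl9 occurred in another gene. Of the words of Myl12a, 9.05% occurred in Myl12b, and of those of Myl12b, 11.2% occurred in Myl12a, so part of their reads can be exchanged between them. Counting all genes, 22.9% of the Myl12a words and 26.0% of the Myl12b words were shared. This was largely with a second annotated gene also named Myl12b (17.4 and 26.0%). The deposited counts hold no row for that gene, so it could not be analysed.

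RefSeq promoter windows (GRCm38.p6, 250 bases before to 50 bases after an annotated start) were found for all 8 genes, 9 windows in all, since Myl6 had 2. A CArG box was present in the windows of Myl9 and of the second start of Myl6, and in 1.63% of all 32851 mouse promoter windows. The same motif with 1 of its 6 core bases not A or T was present in the windows of Myl9 and Myl12a and in 8.5% of all windows. The 3 windows are printed because they are the ones with a match, which capitals mark. Both strands read alike for this motif.
Myl9, chr2:156775214-156775513, plus strand: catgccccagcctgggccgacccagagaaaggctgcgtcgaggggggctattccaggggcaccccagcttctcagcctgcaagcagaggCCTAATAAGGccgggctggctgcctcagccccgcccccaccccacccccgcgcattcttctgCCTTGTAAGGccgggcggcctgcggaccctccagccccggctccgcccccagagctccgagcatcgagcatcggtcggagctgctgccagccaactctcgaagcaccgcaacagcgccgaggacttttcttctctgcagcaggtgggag
Myl6, second start, chr10:128492960-128493259, minus strand: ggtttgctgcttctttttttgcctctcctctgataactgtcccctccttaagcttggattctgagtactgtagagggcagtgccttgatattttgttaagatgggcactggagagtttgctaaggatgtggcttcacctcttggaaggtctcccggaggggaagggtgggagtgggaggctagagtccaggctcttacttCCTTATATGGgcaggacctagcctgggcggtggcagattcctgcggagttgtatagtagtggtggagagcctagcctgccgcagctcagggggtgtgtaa
Myl12a, chr17:71002484-71002783, minus strand: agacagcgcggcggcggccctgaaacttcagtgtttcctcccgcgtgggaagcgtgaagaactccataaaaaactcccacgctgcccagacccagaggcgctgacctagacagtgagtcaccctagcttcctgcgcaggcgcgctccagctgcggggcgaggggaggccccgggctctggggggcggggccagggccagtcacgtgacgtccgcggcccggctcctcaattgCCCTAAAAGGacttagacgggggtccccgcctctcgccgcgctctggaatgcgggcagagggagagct
In the Myl9 window the CArG box CCTAATAAGG began at position -161 and the near match CCTTGTAAGG at position -99, counted from the start. The Myl6 window held CCTTATATGG at -50, and the Myl12a window held the near match CCCTAAAAGG at -18. The windows of Myl12b, Myh9, Myh10, Myh14, Mylk and the first start of Myl6 held neither form, which describes these letters in these windows and not the binding of any factor.

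Library totals ranged from 54151532 to 69933465 estimated counts. Levels are given as normalized CPM (counts scaled to a common library size after TMM), and changes as log2 fold changes of Srrm2+/- over WT from the edgeR quasi-likelihood test, and p-values were adjusted over all 18905 genes tested (Benjamini-Hochberg). A call means an adjusted p under 0.05. The targeted gene Srrm2 stood at 91.2, 98.3 and 97.7 normalized CPM in WT and at 62.3, 56.2 and 59.6 in Srrm2+/-, a difference of -0.69 on the log2 scale (SE 0.05, adjusted p = 2.38e-05). Across the transcriptome 4781 genes were called, 25.3% of those tested. All 10 pluripotency markers examined, Pou5f1, Sox2 and Nanog among them, were expressed in every library, at group means from 44.5 to 1135 CPM.

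Of the 8 myosin genes, 6 rose in Srrm2+/- cells and none fell (6 of 8 called, against 25.3% of all genes tested; 6 of 8 higher, against 13.6%). The same 6 lay higher in every Srrm2+/- library than in every WT library, which held for 21.4% of all genes tested. Among them Myl9 changed most, 12-fold, followed by Myh10, Myh9, Myl12a, Myl6 and Myl12b, which rose by 1.16- to 1.87-fold. Myh14 and Mylk were not called. The median log2 fold change of the 8 was 0.54, beside -0.0025 over all genes tested and 0.59 over the 2573 genes called higher. Together the 8 genes took 0.0559 to 0.0565% of all counts in the WT libraries and 0.0827 to 0.0868% in the Srrm2+/- libraries. In bulk RNA, a change in the number of cells that express a gene and a change in its RNA per cell cannot be told apart.

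**Figure D1:**
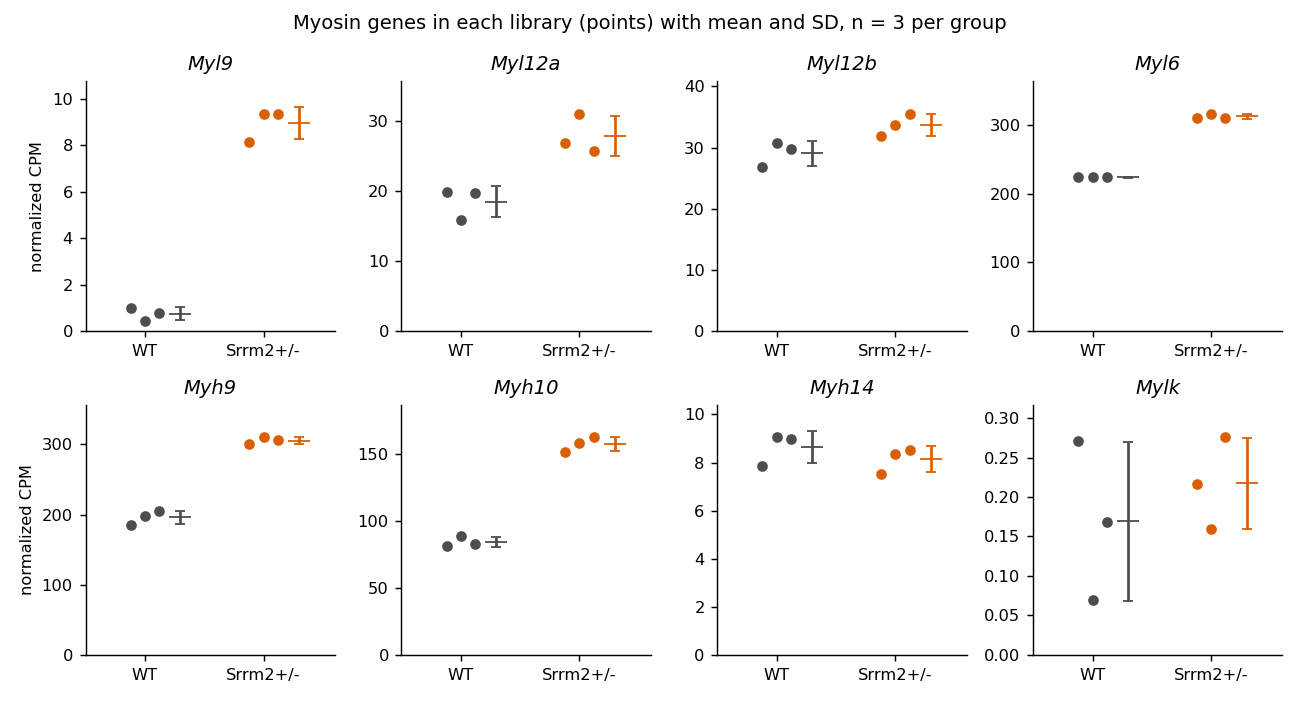
Normalized CPM of each of the 8 myosin genes (vertical axes, each from 0) in the 3 WT and 3 Srrm2+/- libraries (points), with the group mean and SD beside them. The groups stand apart for Myl9, Myl12a, Myl12b, Myl6, Myh9 and Myh10 and overlap for Myh14 and Mylk.

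Myl9, a regulatory light chain abundant in smooth muscle, was near the limit of detection in WT cells. Its estimated counts were 56, 26 and 42 in the WT libraries and 564, 645 and 576 in the Srrm2+/- libraries. Every Srrm2+/- library stood far above the highest WT library. In normalized CPM the values were 1.01, 0.450 and 0.784 in WT and 8.15, 9.35 and 9.34 in Srrm2+/-, with means of 0.748 ± 0.281 and 8.95 ± 0.690 (SD, n = 3). By edgeR the log2 difference was 3.58 (SE 0.23, adjusted p = 1.09e-05), which ranked 44 among 18905. WT replicate 2 was the lowest library and the log2 fold change lay between 3.32 and 3.86 whichever library was left out.

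Myl12a encodes a broadly expressed non-muscle regulatory light chain. Its normalized CPM were 19.9, 15.9 and 19.7 in WT and 26.9, 31 and 25.7 in Srrm2+/-. The groups did not overlap, although WT replicate 2 stood below and Srrm2+/- replicate 2 above the other libraries of their groups. The mean rose from 18.5 ± 2.26 to 27.9 ± 2.81 (SD, n = 3), or 0.59 in log2 units (SE 0.10, edgeR adjusted p = 0.00272).

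Myl12b, its near-identical neighbour, showed the smallest change among the called members. Its normalized CPM were 26.7, 30.7 and 29.8 in WT and 31.9, 33.7 and 35.5 in Srrm2+/-. The highest WT library and the lowest Srrm2+/- library differed by little. The estimated log2 difference was 0.21 (SE 0.07, 95% confidence interval 0.07 to 0.36, edgeR adjusted p = 0.0413). The call was borderline. It was lost without WT replicate 1 (0.16, edgeR adjusted p = 0.111) or WT replicate 3 (0.23, adjusted p = 0.0687). It was also lost without Srrm2+/- replicate 2 (0.22, adjusted p = 0.0943) or Srrm2+/- replicate 3 (0.18, adjusted p = 0.138). Each of these settings leaves 5 of the 8 genes called. Without WT replicate 3 or Srrm2+/- replicate 2 the estimate itself did not fall, but its SE was 0.08.

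Because Myl12a and Myl12b share sequence, they were also summed. Their summed normalized CPM were 46.7, 46.6 and 49.5 in WT and 58.8, 64.7 and 61.2 in Srrm2+/-. Within WT, the sum varied less than either gene: its coefficient of variation was 3.44%, against 12.2% for Myl12a and 7.09% for Myl12b, and within Srrm2+/- it was 4.80%, against 10.1% and 5.33%. WT replicate 2, which held the least Myl12a, held the most Myl12b. Fitted as 1 gene, the sum rose by 0.37 on the log2 scale (SE 0.05, edgeR adjusted p = 0.000686). The coefficient of variation of a sum can be lower than those of its parts even when these vary independently. How reads were divided between both genes was not tested.

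**Figure D2:**
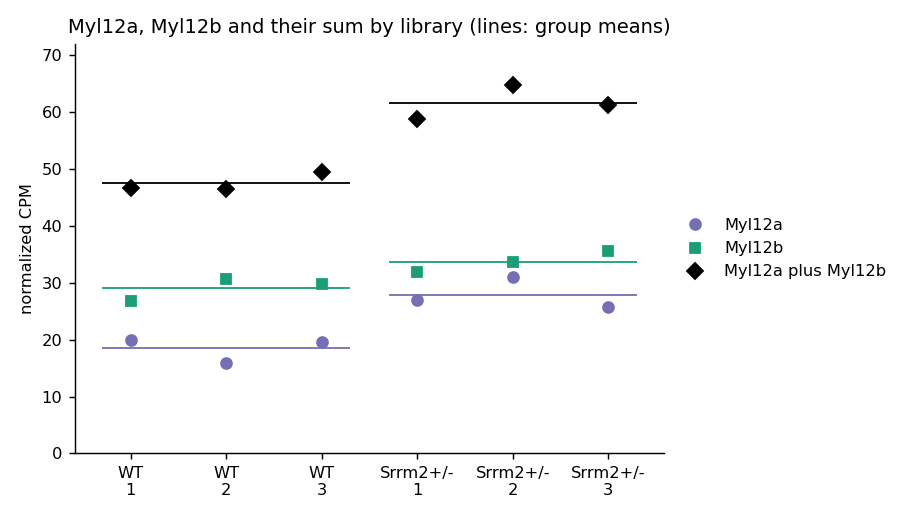
Normalized CPM (vertical axis, from 0) of Myl12a, Myl12b and their sum in each of the 6 libraries, with lines at the group means. The sums lie between 46.6 and 49.5 in WT and between 58.8 and 64.7 in Srrm2+/-, whereas the points of the separate genes shift against each other in WT replicate 2.

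The make-up of the regulatory light chain RNA therefore changed. Counts were divided by the length of each gene's merged exons, and each gene was expressed as a share of the 3 genes' sum. Myl9 made up 5.28, 2.39 and 3.90% of this sum in WT and 26.4, 27.3 and 28.2% in Srrm2+/-. The share of Myl12b moved the other way, from 58.7, 68.4 and 62.2% to 43.4, 41.3 and 45%. Its level did not fall, with means of 29.1 ± 2.06 CPM in WT and 33.7 ± 1.80 in Srrm2+/- (SD, n = 3). The shares are parts of the same whole, so one can fall without a fall in level. The share of Myl12a overlapped between the groups, with means of 33.1 ± 3.49% and 29.5 ± 2.37% (SD, n = 3, exact permutation p = 0.3). For Myl9 and Myl12b the exact permutation p was 0.1 (two-sided, n = 3 per group), the smallest that 3 against 3 libraries allow. The Myl9 share rose by 23.5 percentage points on this scale, by 18.1 with the longest transcript as length and by 11.1 with no division by length.

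**Figure D3:**
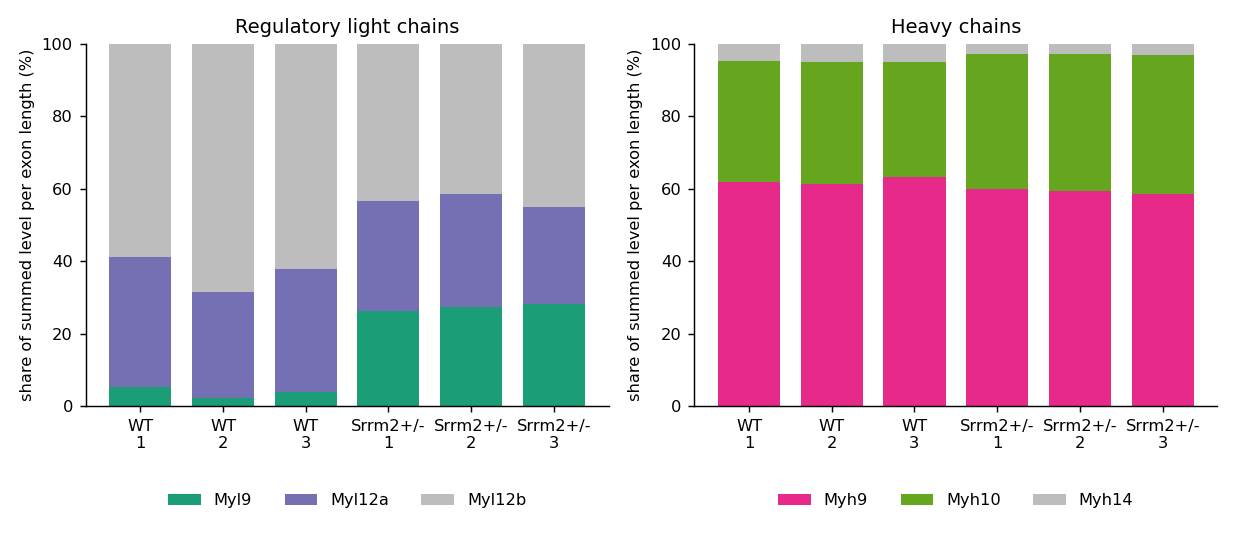
Stacked bars give each gene's share, in percent, of the summed level per exon length of the 3 regulatory light chain genes (left) and of the 3 heavy chain genes (right) in each library. The Myl9 share is 2.39 to 5.28% in WT and 26.4 to 28.2% in Srrm2+/-, and the Myh9 share 61.2 to 63.4% and 58.7 to 59.9%.

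Myl6, the essential light chain that non-muscle and smooth-muscle myosin II share, was the most abundant member per exon length in both genotypes. It lies on the minus strand at chr10:128490860-128494145, 11 bases from its paralogue Myl6b. Its normalized CPM were 224, 224 and 225 in WT and 310, 317 and 311 in Srrm2+/-. Replicates differed little and the groups were far apart. The rise was 0.48 on the log2 scale (SE 0.03, edgeR adjusted p = 2.30e-05). Of its 31-base words, 11.4% occurred in other genes, chiefly the pseudogenes Gm5526, Gm10080 and Gm8894, which held at most 23 estimated counts in any library, and the change was also 0.48 with them added to Myl6. Myl6b averaged 0.834 ± 0.227 CPM in WT cells and 0.852 ± 0.200 in Srrm2+/- cells (SD, n = 3), a log2 difference of 0.03 (edgeR adjusted p = 0.954).

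Both broadly expressed heavy chains rose. Myh9 (chr15:77760587-77842175, minus strand) encodes the heavy chain of non-muscle myosin IIA. Its normalized CPM were 186, 198 and 205 in WT and 299.8, 310 and 306 in Srrm2+/-, higher by 0.64 on the log2 scale (SE 0.04, edgeR adjusted p = 1.95e-05). Every Srrm2+/- library stood well above the highest WT library. Myh10 (chr11:68691559-68816632, plus strand) encodes the heavy chain of myosin IIB. Its normalized CPM were 81.3, 88.3 and 82.5 in WT and 151, 158 and 162 in Srrm2+/-, higher by 0.90 on the log2 scale (SE 0.05, edgeR adjusted p = 3.40e-06). The spread within each group was small beside this change.

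Myh14 (chr7:44605803-44670843, minus strand), which encodes the heavy chain of myosin IIC, did not follow. Its normalized CPM were 7.87, 9.05 and 8.98 in WT and 7.51, 8.35 and 8.54 in Srrm2+/-. The groups overlapped, and the log2 fold change was -0.09 with a 95% confidence interval from -0.30 to 0.12 (edgeR adjusted p = 0.556). The upper end of that interval lies below the lower ends for Myh9 (0.54) and Myh10 (0.80), and the difference between the genes was not tested as such.

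Among the 3 heavy chain genes, per exon length, the share of Myh9 was 61.9, 61.2 and 63.4% in WT and 59.9, 59.6 and 58.7% in Srrm2+/-. The share of Myh10 was 33.5, 33.8 and 31.6% in WT and 37.4, 37.6 and 38.4% in Srrm2+/-. Myh14 went from 4.86 ± 0.175% to 2.81 ± 0.126% (SD, n = 3). The shares are again parts of 1 whole: the level of Myh9 rose, and that of Myh14 was not called. None of these 3 shares overlapped between the groups, and for each the exact permutation p was 0.1 (n = 3 per group), the smallest possible. WT cells had a ratio of Myh10 to Myh9 of 0.531 ± 0.0281 (SD, n = 3), and Srrm2+/- cells one of 0.636 ± 0.0161.

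Light chain RNA was also set against heavy chain RNA. The ratio of Myl6 to the summed heavy chains, per exon length, was 3.02, 2.81 and 2.83 in WT and 2.51, 2.47 and 2.42 in Srrm2+/- (exact permutation p = 0.1, n = 3 per group). It was lower in every Srrm2+/- library. The ratio of the summed regulatory light chains to the summed heavy chains overlapped, with a WT mean of 0.683 ± 0.0313 and an Srrm2+/- mean of 0.708 ± 0.0227 (SD, n = 3, exact permutation p = 0.5). With the longest transcript as length this ratio was 0.618 in WT and 0.609 in Srrm2+/-, and with no division by length it was 0.173, 0.159 and 0.170 in WT and 0.146, 0.155 and 0.148 in Srrm2+/-, without overlap (exact permutation p = 0.1, n = 3 per group). Its direction and overlap thus depended on the length chosen.

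Mylk (chr16:34745210-35002420, plus strand), the calcium and calmodulin-dependent kinase of the regulatory light chain, was at the floor of detection. Its estimated counts were 15, 4 and 9 in WT and 15, 11 and 17 in Srrm2+/-. The groups overlapped, and the log2 fold change of 0.36 had a 95% confidence interval from -0.80 to 1.52 (edgeR adjusted p = 0.671). Without WT replicate 2, the library with 4 counts, it was -0.018 (adjusted p = 0.986). No change of Mylk was detected at this depth, and the wide interval does not settle a direction.

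**Figure D4:**
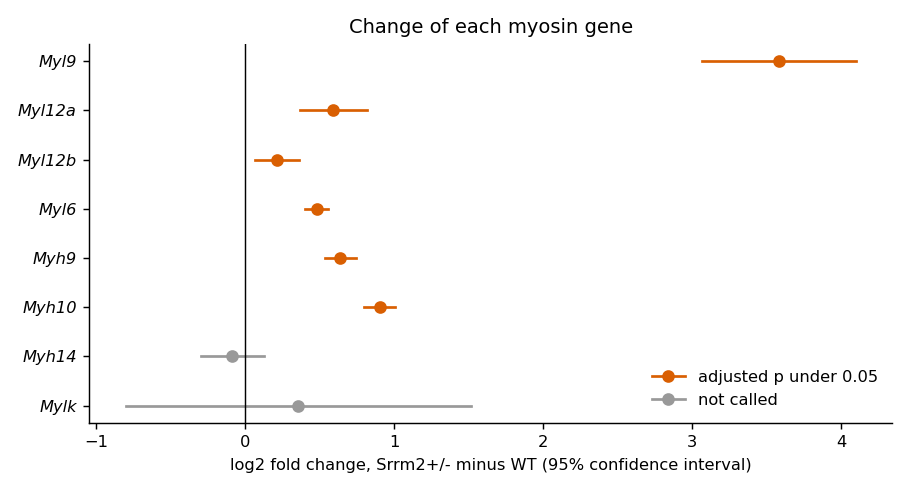
Log2 fold change of Srrm2+/- over WT (horizontal axis) with its 95% confidence interval for each of the 8 genes, coloured by whether the edgeR adjusted p was under 0.05. Myl9 stands apart at 3.58, the 5 other called genes lie between 0.21 and 0.90, and the intervals of Myh14 and Mylk span 0.

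The order of the members by level per kilobase of merged exons (RPKM) in WT was Myl6 (70.4 ± 0.247), Myh9 (15.2 ± 0.739), Myl12b (10.5 ± 0.744), Myh10 (8.04 ± 0.356), Myl12a (5.51 ± 0.672), Myh14 (1.19 ± 0.0905), Myl9 (0.643 ± 0.242) and Mylk (0.0150 ± 0.00893; SD, n = 3). No neighbours in that order overlapped. In Srrm2+/- cells it was Myl6 (98.1 ± 1.12), Myh9 (23.6 ± 0.396), Myh10 (15 ± 0.522), Myl12b (12.2 ± 0.648), Myl12a (8.30 ± 0.838), Myl9 (7.70 ± 0.593), Myh14 (1.12 ± 0.0752) and Mylk (0.0193 ± 0.00515). There Myl12a and Myl9 overlapped, at 7.64 to 9.24 and 7.01 to 8.05. Myh10 thus moved ahead of Myl12b, and Myl9 ahead of Myh14. Both orders were the same with the longest transcript as length. On that scale Myl12a and Myl9 no longer overlapped in Srrm2+/-, at 14.4 ± 1.45 and 7.93 ± 0.611. Myl12b and Myl12a overlapped there instead, at 14.9 to 16.6 and 13.3 to 16.0.

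Genes of smooth muscle were examined beside Myl9, and they did not move alike. Myh11, the smooth-muscle heavy chain, had 4, 10 and 0 estimated counts in WT and 10, 0 and 13 in Srrm2+/- and was not tested. Myocd, the cofactor that drives smooth-muscle genes, had 4 to 9 counts in WT and 15 to 25 in Srrm2+/- and was not called (edgeR adjusted p = 0.120). Of 10 smooth-muscle markers, Mylk and Myh11 included, 7 were tested and 4 rose (Cnn1, Lmod1, Smtn and Des), and the summed level of the 10 was 21.5 to 23.0 CPM in WT and 34.8 to 39.5 in Srrm2+/-. That list left out Acta2 and Tagln, smooth-muscle actin and transgelin, which are named after their values were seen. Acta2 rose from 2.48 ± 0.825 to 43.9 ± 6.36 CPM (SD, n = 3), by 4.15 on the log2 scale (SE 0.19, edgeR adjusted p = 2.12e-06), although actin genes are near-identical and can exchange reads. Tagln rose from 3.58 ± 1.13 to 68.4 ± 5.52 CPM, by 4.26 (SE 0.18, edgeR adjusted p = 1.32e-06). The summed level of the 10 markers includes neither Acta2 nor Tagln. Of 12 fibroblast markers 10 were tested and 6 rose, with summed levels of 6.26 to 6.40 CPM in WT and 12.1 to 15.6 in Srrm2+/-, while Lum was at or near 0 in all libraries. Of 9 trophectoderm markers 7 were tested, 4 rose and 1 fell, with sums of 71.6 to 75.9 and 276 to 307 CPM, in Srrm2+/- mostly Krt8 and Krt18, and Cdx2 had 0 counts in WT and 5 to 17 in Srrm2+/-. Of 9 primitive endoderm markers 7 were tested and 1 rose, with sums of 2.81 to 3.11 and 3.70 to 4.48 CPM. Of the 10 pluripotency markers 6 fell and 2 rose, with sums of 5521 to 5708 and 4753 to 4874 CPM. Beside the counts of these marker lists, 25.3% of all genes tested were called, 13.6% higher and 11.7% lower. With 1 library left out, Dppa4 (without WT or Srrm2+/- replicate 3), Dppa5a (without replicate 2 or 3 of either group) and Eomes (on removal of any library except WT replicate 2) lost their calls. The part of these other expression programmes in the myosin changes was not tested.

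Beyond the 8 genes, 105 genes of the myosin II pathway and of the wider myosin family were examined in 8 lists. Of these, 90 were tested and 43 called, 30 higher and 13 lower, beside 25.3% of all genes called, 13.6% higher and 11.7% lower. Their median log2 fold change was 0.03. With 1 library left out at a time, 7 of the 43 lost their call at least once, namely Myh7b, Calm3, Ppp1r12c, Ppp1r16b, Arhgef28, Myo5c and Myo9b, of which Myo5c and Myo9b are named after their values were seen.

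Other myosin II heavy chains, most of them known from striated muscle, did not move as 1 group. Of 11 genes, 4 were tested, 1 rose and 2 fell. Myh13, known from extraocular muscle, had estimated counts of 976, 1223 and 1005 in WT and 429, 490 and 425 in Srrm2+/-. It fell in every Srrm2+/- library, by 1.51 on the log2 scale (SE 0.09). Myh7b fell from 4.29 ± 0.437 to 3.22 ± 0.307 CPM (log2 fold change -0.41, SE 0.13), but its call was lost whichever of the 6 libraries was left out (-0.49 to -0.32). The slow and cardiac heavy chain Myh7 rose from 0.294 ± 0.0778 to 0.936 ± 0.0760 CPM (log2 fold change 1.66, SE 0.26).

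Of 8 other light chain genes, 5 were tested, 1 rose and 1 fell. Myl3, the slow and ventricular essential light chain, had 6 to 7 counts in WT and 30 to 34 in Srrm2+/- (log2 fold change 1.97, SE 0.32). Myl4, the atrial and fetal essential light chain, fell from 2.50 ± 0.271 to 1.23 ± 0.0376 CPM (log2 fold change -1.02, SE 0.15). Their counts were low in every library. As for striated muscle as a whole, of 17 markers 7 were tested and 2 rose, the same Myh7 and Myl3, with summed levels of 106 to 114 CPM in WT and 89.3 to 102 in Srrm2+/-, mostly Ttn and Mylpf, and Myod1 and Ckm had no count in any library.

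Of 13 other kinases that can phosphorylate the regulatory light chain, 11 were tested, 5 rose and 1 fell. Rock2, an effector of RHOA, rose from 88.0 ± 1.21 to 103 ± 3.33 CPM (log2 fold change 0.23, SE 0.04), whereas Rock1 differed by -0.02 (SE 0.05, edgeR adjusted p = 0.774). The death-associated protein kinases Dapk1 and Dapk3 rose by 0.62 and 0.63 on the log2 scale (SE 0.07 and 0.08). Stk17b, a relative of theirs, rose by 0.42 (SE 0.05), and Cdc42bpb, an effector of CDC42, by 0.25 (SE 0.05). Cit, the citron kinase of cytokinesis, fell by 0.41 (SE 0.07). The kinases that moved thus changed by less than 1 on the log2 scale.

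Of 13 genes of myosin phosphatase and its regulators, all were tested, 2 rose and 2 fell. Mprip, which tethers the phosphatase to actin, rose by 0.34 (SE 0.05), and the targeting subunits Ppp1r12c and Ppp1r16b fell by 0.16 (SE 0.05) and 0.44 (SE 0.14). These 2 falls were called with all libraries, and Ppp1r12c lost its call on removal of any library except Srrm2+/- replicate 1 (-0.20 to -0.12), as did Ppp1r16b on removal of any except WT replicate 1 (-0.51 to -0.33). Ppp1r14c, an inhibitor of protein phosphatase 1, named after its values were seen, had 4, 8 and 0 counts in WT and 69, 57 and 82 in Srrm2+/- (log2 fold change 3.84, SE 0.58). It was 3.29 without WT replicate 3 and 4.77 without WT replicate 2, and stayed called. The calmodulin gene Calm3 rose by 0.12 (SE 0.04), and its call was lost on removal of any library except Srrm2+/- replicate 2 (0.11 to 0.14). The catalytic phosphatase subunits Ppp1ca, Ppp1cb and Ppp1cc were not called.

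Among 16 small GTPases related to RHOA and their exchange factors, 5 rose and none fell. Rnd3, a small GTPase that opposes ROCK1, rose from 20.9 ± 1.79 to 44.2 ± 1.23 CPM (log2 fold change 1.08, SE 0.07). Rhob rose by 0.74 (SE 0.10) and Rhoc by 0.48 (SE 0.07), while Rhoa differed by 0.02 (SE 0.05, edgeR adjusted p = 0.758). Arhgef28, an exchange factor for RHOA, had counts of 82, 97 and 0 in WT and 410, 394 and 382 in Srrm2+/- (log2 fold change 2.48, SE 0.69), so WT replicate 3 stood apart from its group. Its call was lost when any Srrm2+/- library was left out, and the log2 fold change was 1.91 without WT replicate 3 and 2.99 without WT replicate 2. Net1, another exchange factor, named after its values were seen, rose by 0.29 (SE 0.05).

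Of 17 proteins that assemble, fold or regulate myosin II filaments, 16 were tested, 8 rose and 1 fell. Cald1, caldesmon, which binds actin and myosin and restrains the motor, had counts of 509, 451 and 440 in WT and 4880, 4936 and 4051 in Srrm2+/-. The rise was 3.04 on the log2 scale (SE 0.07), with no overlap. Limch1, an activator of myosin IIA, rose by 2.76 (SE 0.20) from 26 to 33 counts in WT to 175 to 283 in Srrm2+/-. Shroom4, an actin-binding adaptor, rose by 1.00 (SE 0.08) and the myosin chaperone Unc45a by 0.41 (SE 0.08). Sept9 (listed under its name in the annotation used), named after its values were seen, fell by 0.20 (SE 0.04).

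Of 24 unconventional myosins, 22 were tested, 6 rose and 6 fell. Myo5b, a motor of recycling endosomes, rose by 1.74 (SE 0.20), and Myo1c, which links membranes to actin, rose by 1.03 (SE 0.04) from 55.4 ± 1.43 to 113 ± 4.04 CPM. Myo1f and Myo1g, known from blood cells, fell by 1.31 (SE 0.16) and 0.99 (SE 0.16). Myo5c lost its call without WT replicate 1 or Srrm2+/- replicate 1 or 2 (-0.64 to -0.40), and Myo9b on removal of any library except WT replicate 3 (0.14 to 0.25).

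**Figure D5:**
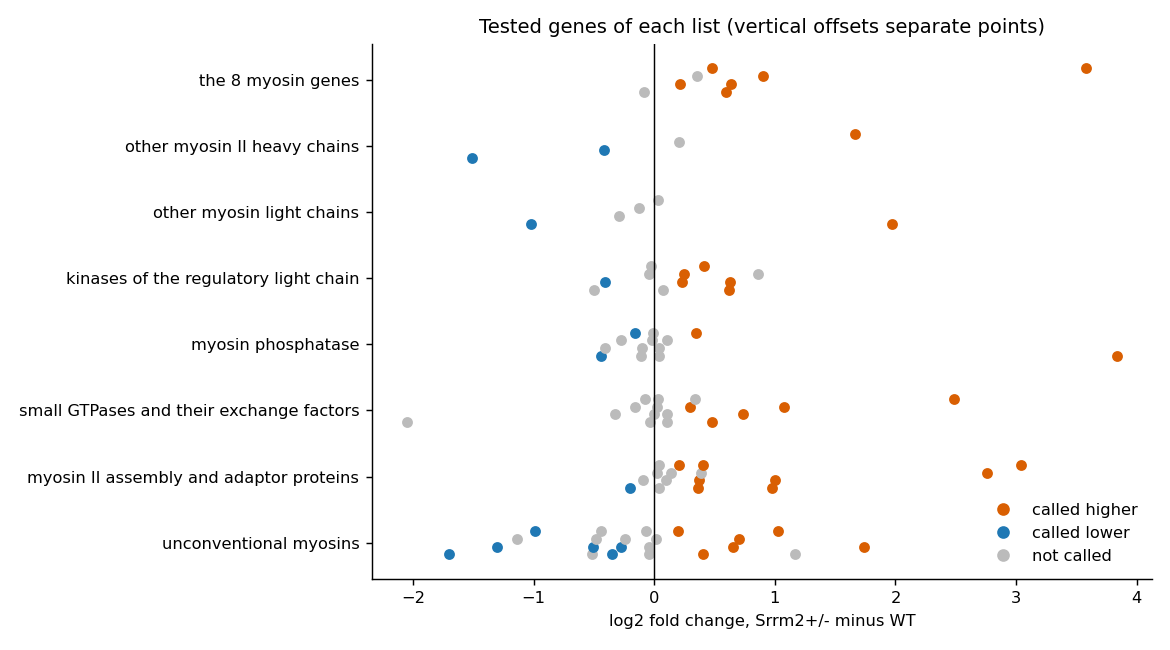
Log2 fold change of Srrm2+/- over WT (horizontal axis) for every tested gene of the 8 myosin genes and of 7 lists of related genes, coloured by the edgeR call. The list of small GTPases and exchange factors holds 5 genes called higher and none lower, whereas the unconventional myosins hold 6 of each.

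The genes whose pattern over the 6 libraries was nearest to that of Myl9 were sought among 12067 genes whose mean log2 CPM reached 1, by Euclidean distance of log2 CPM relative to the WT mean. They were Anxa3, an annexin (distance 0.578), Thbs1, thrombospondin 1 (0.610), the guanylate-binding proteins Gbp2 (0.613) and Gbp2b (0.723), and Cyp1b1, a cytochrome P450 (0.746). Their log2 fold changes were 3.82, 3.82, 3.58, 3.29 and 4.06 in that order, and this choice used the same libraries.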

How the data were processed

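Total RNA of 3 WT and 3 Srrm2+/- cultures was sequenced on stranded paired-end libraries. Reads were assigned by the authors to GENCODE M24 transcripts (mm10, that is GRCm38) using kallisto 0.46.1, and the deposited values are unnormalized estimated counts of each gene. How strand was set, and whether genes were filtered, is not given in the sources used here. Reads that fit several transcripts are split by this tool, so Myl12a and Myl12b, Myl6 and its pseudogenes, and genes overlapping Mylk or Myh14 can exchange counts.

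Groups and replicate numbers came from the sample titles. Estimated counts were rounded and 18905 of 42450 genes passed filterByExpr (minimum count 10, minimum total 15). Genotype was fitted with edgeR 4.0.16 (TMM, glmQLFit, glmQLFTest, two-sided, R 4.3.3), and p-values were adjusted by Benjamini-Hochberg over all tested genes. The standard error is the size of the log2 fold change divided by the square root of F. Symbols, positions, exon lengths and shared 31-base words came from GENCODE M21, and promoter windows from RefSeq (GRCm38.p6). Shares were compared by the exact permutation test, two-sided. The code was tested on simulated data.

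The members and lists were chosen with earlier results of these data known. Named genes were the members, Srrm2, Myh11, Myl6b, every called gene of the other heavy chain, other light chain and kinase lists, in each further list up to 4 called genes of largest change whose mean log2 CPM reached 1 and whose groups did not overlap, and the 5 genes nearest to Myl9. Other genes were named outside this rule. Among them are several cell type markers, Rock1, Rhoa, the catalytic phosphatase subunits and those said to be named after their values were seen.

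Alternatives were RLE and upper quartile normalization, TMM without short RNA, rRNA and mitochondrial genes, DESeq2 1.42.0, limma voom 3.58.1, a looser filter (1 count in total) and a stricter one (1 CPM in all libraries of either group), a replicate block, each library left out, other lengths, Myl12a and Myl12b summed and, chosen after seeing the data, Myl6 summed with its 3 nearest pseudogenes. Depth was 54151532 to 69933465 estimated counts per library, which leaves counts under about 60, as for Myl9 in WT and for Mylk, with wide counting error. The spread among replicates is that of thawed batches of 1 line each. RNA spike-ins were not used here. The result of 1 listed gene that the rule names is not reported here. Splicing and isoforms within a gene were not analysed here.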

Additional observations from a re-analysis of the deposited data

How the results depend on the processing

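Myl9, Myl12a, Myl6, Myh9 and Myh10 stayed higher and called under every alternative run, and Myh14 stayed lower and not called. With the library left out varied, Myl12b lay between 0.16 and 0.26 on the log2 scale and lost its call without WT replicate 1, WT replicate 3, Srrm2+/- replicate 2 or Srrm2+/- replicate 3, and the cause was not tested. Mylk lay between -0.018 and 0.87, reversed without WT replicate 2, and was not tested under the filter of at least 1 CPM, so that setting gave it no value. The number of genes changed was 3515 to 4122 with 1 library left out and 3515 to 4809 over all alternatives, 5 to 6 myosin genes and 37 to 44 pathway genes were called, and the share of higher calls moved by under 10 percentage points.

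The rise of the Myl9 share of regulatory light chain RNA, 23.5 percentage points per exon length, was 18.1 with the length of the longest transcript, 18.1 with the longest protein coding transcript and 11.1 with no division by length. It was 22.7 to 24.2 with 1 library left out, and the fall of the Myh9 share among heavy chains was -3.25 to -2.16. Deviations of same-numbered libraries correlated by -0.028, -0.034 and -0.030, so equal numbers gave no sign of pairing. Under the replicate block 4166 genes, 6 myosin genes and 42 pathway genes were called, and Myl9 and Myl12b rose by 3.60 and 0.21, with no change of any member's call. Low counts limit Mylk and Myl9 in WT, and shared sequence limits the split between Myl12a and Myl12b.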
